A study of Mus musculus with 2 samples.

Results

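T cells that carried transcripts of the CD3 receptor complex but none of the coreceptors CD4 and CD8 were described in mouse brain bearing G422 glioma. A barcode was taken as such a cell if it held 2 or more transcript counts (UMIs, molecules counted once by their molecular barcode) of Cd3d, Cd3e and Cd3g together, 0 UMIs of Cd4, Cd8a and Cd8b1, and at most 2 UMIs of the complement genes C1qa, C1qb and C1qc. Every cell also had at least 1000 UMIs, at least 300 genes and at most 15% mitochondrial UMIs. The rule found 129 of 13145 cells, 32 in the control library and 97 in the long-term survivor (LTS) library. The cells were thus chosen by their CD3, coreceptor and C1q counts, and those values are given below as descriptions only.

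Both libraries came from Kunming mice with G422 glioma, a mouse glioma line, placed in the brain. The control mice were untreated and their tumour tissue was taken 7 days after inoculation. The LTS mice had survived for more than 100 days after a combined therapy, which the labels do not specify, were inoculated again in the opposite hemisphere and again survived for more than 100 days. The tissue of the LTS library is also labelled as taken on day 7, and which inoculation that day counts from is not clear from the labels. The number of mice pooled in a library is not given, so there was 1 library per group, no difference between control and LTS has a replicate check, and no p-value is given. Intervals are 95% intervals, exact unless another kind is named, and cover counting error only. Neither arm gives blood or healthy brain T cells for comparison, and the tumour is a transplanted line.

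Most T cells carry an alpha-beta receptor with CD4, which binds MHC class II, or CD8, which binds MHC class I. T cells without either coreceptor include many gamma-delta T cells, innate-like alpha-beta T cells such as natural killer T cells, and conventional cells that have turned their coreceptor off. Gamma-delta T cells that make interleukin 17 are known for the transcription factors Sox13 and Maf, the kinase Blk and the scavenger receptor Cd163l1, and they are resident in the meninges. In droplet sequencing, a T cell that expresses its coreceptor at a low level may also show no UMI of it, and such a cell meets the same rule.

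The control library held 8310 cells with a median of 14889.5 UMIs and the LTS library 4835 cells with a median of 18779 UMIs. Of the CD3 cells, 62 were in the control and 451 in the LTS library. The cells without coreceptor UMIs were 32 of the 62 control CD3 cells (51.6%, 95% interval 38.6 to 64.5) and 97 of the 451 LTS CD3 cells (21.5%, 17.8 to 25.6). Cells with Cd8a or Cd8b1 but no Cd4 UMI, called Cd8 cells here, were 18 of 62 and 264 of 451. Cells with Cd4 but no Cd8 UMI, called Cd4 cells, were 12 of 62 and 87 of 451, and 3 LTS cells held both. No cell barcode without coreceptor UMIs was shared between the libraries, against 13 shared barcodes among all cells.

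The cells carried T cell genes that the rule did not use. In the LTS library, 50 of the 97 cells (51.5%) had a UMI of Lck, the kinase that starts T cell receptor signalling, 51 of Lat, its adaptor, 65 of Thy1 and 62 (63.9%) of Skap1, a further adaptor. Lck was seen in 79.5% of Cd8 cells and 88.5% of Cd4 cells, in 4.72% of LTS cells with 20 or more UMIs of 8 tumour genes, and in 0.789% of LTS cells with 10 or more C1q UMIs, the level of macrophages and microglia. Here and below, both comparison sets held only cells without a CD3 UMI. The tumour gene-rich set also held only cells without a UMI of the leukocyte gene Ptprc. Their shares of T cell genes are thus partly set by this choice. The median depth of these comparison cells was 41297.5 and 5556.5 UMIs, against 2873 UMIs in the LTS cells without coreceptor UMIs. T cell genes were sparser in the control library: Skap1 had a UMI in 12 of 32 cells, Lat in 9, Lck in 8, Thy1 in 7 and the CD3 zeta chain Cd247 in 7. T cell genes that the rule did not use were thus found in a larger share of the LTS than of the control cells, at a median depth of 2278.5 UMIs in the control cells.

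These were shallow cells. Control cells without coreceptor UMIs held 1204 to 19259 UMIs with a median of 2278.5, and LTS cells held 1020 to 91126 UMIs with a median of 2873. The medians of Cd8 cells were 2625.5 and 3457.5 UMIs, and those of Cd4 cells 2867.5 and 3659 UMIs. The cells without coreceptor UMIs also held fewer CD3 UMIs, with a median of 4 in the control and 7 in the LTS library, against 4.5 and 11 in Cd8 cells and 5.5 and 9 in Cd4 cells. In both libraries they were thus the shallowest CD3 cells by the median, although the ranges overlapped.

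**Figure D1:**
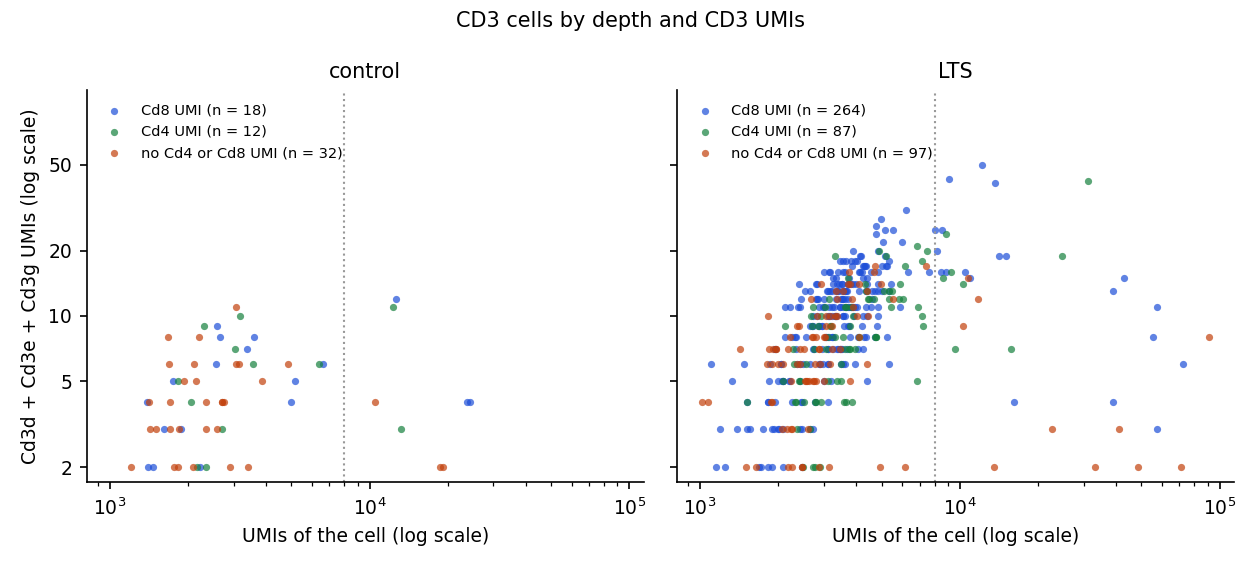
UMIs of each CD3 cell (x axis, log scale) against its summed Cd3d, Cd3e and Cd3g UMIs (y axis, log scale) in the control and LTS libraries, 1 point per cell, with the dotted line at 8000 UMIs. The cells without Cd4 or Cd8 UMIs lie among the other CD3 cells, and 3 control and 10 LTS ones lie at 8000 UMIs or more; the 3 LTS cells with both coreceptors are not drawn.

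Their share of CD3 cells was lower where cells were deeper, up to 8000 UMIs. The LTS share was 15 of 42 cells from 1000 to under 2000 UMIs (35.7%, 21.5 to 52.0), 59 of 267 from there to under 4000 (22.1%, 17.3 to 27.6) and 13 of 103 from there to under 8000 (12.6%, 6.89 to 20.6). The intervals of the shallowest and the middle of these bins overlapped, and those of the shallowest and the deepest did not. At 8000 UMIs or more the share was 10 of 39 (25.6%, 13.0 to 42.1). By CD3 UMIs, the LTS share was 21 of 50 cells with 2 or 3 CD3 UMIs (42.0%, 28.2 to 56.8) and 19 of 191 with 11 or more (9.95%, 6.10 to 15.1). The same 4 bins of the control library held 12 of 19 (63.2%, 38.4 to 83.7), 16 of 30, 1 of 5 and 3 of 8, with intervals too wide to order the bins. Among cells under 8000 UMIs with 7 or more CD3 UMIs 3 of 10 control and 48 of 285 LTS cells (16.8%, 12.7 to 21.7) had no coreceptor UMI.

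**Figure D2:**
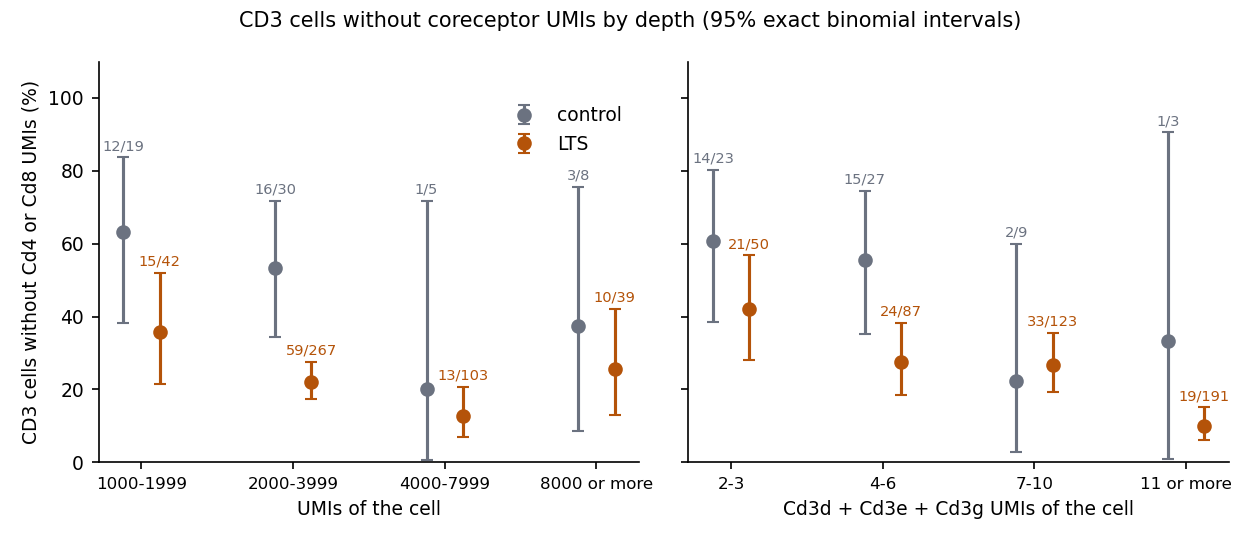
Share of CD3 cells without Cd4 or Cd8 UMIs (y axis, percent) by total UMIs of the cell (left) and by CD3 UMIs (right) in the control and LTS libraries, with 95% exact binomial intervals and the cell counts above each point. The LTS share was 35.7% below 2000 UMIs and 12.6% between 4000 and 8000 UMIs, and 42.0% at 2 or 3 CD3 UMIs and 9.95% at 11 or more.

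How many of the LTS cells without coreceptor UMIs were Cd8 cells whose transcripts were missed depended on the estimate, from 3.23 to 21.4 of 97. Cd8a and Cd8b1 encode the 2 chains of CD8 and were counted separately, so the cells that show only 1 of them tell how often each is missed. Of the LTS cells, 212 CD3 cells had UMIs of both, 22 of Cd8a only and 33 of Cd8b1 only. Cd8b1 was seen in 90.6% of the Cd8a cells and Cd8a in 86.5% of the Cd8b1 cells. If both are missed independently, 3.42 LTS cells (log-normal interval 1.96 to 5.97) with CD8 transcripts would show neither. Estimated within bins of depth the number was 3.34, and with cells that held Cd4 UMIs left out it was 3.23. From the 20 cells with 1 and the 32 cells with 2 Cd8 UMIs it was 6.25. A further estimate, added after the data were seen, thinned deeper cells to the depths of the 183 LTS CD3 cells under 4000 UMIs with Cd8 UMIs. It gave 21.4 missed cells from the 84 cells of 4000 or more UMIs, and 9.38 from the 63 of them under 8000 UMIs. It takes the deeper cells to hold the same share of Cd8 UMIs as the shallower ones. That share was 1859 CPM in LTS cells with Cd8 UMIs from 2000 to under 4000 UMIs, 1629 CPM from there to under 8000 and 485 CPM in the 21 cells of 8000 or more, where only cells with a Cd8 UMI enter. The control counts were 13, 2 and 3 cells, which gave 0.462 cells (log-normal interval 0.0711 to 2.99), and thinning gave 6.33 from 6 deeper cells and 1.09 from 3. The joint estimate covers alpha-beta CD8 cells only, since a cell that makes Cd8a without Cd8b1 is counted as a miss of Cd8b1.

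Cd4 was missed far more often. The LTS cells with Cd4 UMIs held a median of 1 such UMI: 46 of 90 cells had 1, 25 had 2 and the highest had 11, whereas LTS Cd8 cells held a median of 6 Cd8a and Cd8b1 UMIs. From the numbers of cells with 1 and with 2 UMIs, 42.3 LTS cells and 25 control cells with CD4 transcripts would show none. A further estimate used Foxp3, which defines regulatory T cells, and Cd40lg, a ligand of activated CD4 helper cells, as marks of the CD4 lineage. Of the 31 LTS CD3 cells with a UMI of either, 24 had a Cd4 UMI (77.4%, 58.9 to 90.4), 7 had no coreceptor UMI and 0 had a Cd8 UMI. At that rate 25.4 LTS cells (9.23 to 60.7) with CD4 transcripts would show none. Of 6 control Foxp3 cells 2 had a Cd4 UMI (33.3%, 4.33 to 77.7), which gives 24 cells with an interval of 3.44 to 265.3 whose upper end exceeds the 32 control cells. Thinning deeper cells lost Cd4 more often than Cd8. LTS Cd8 cells of 4000 or more UMIs, thinned to 2000 UMIs, would lose all Cd8 UMIs in 13.0% of cells, and Cd4 cells all Cd4 UMIs in 45.3%. At 3000 UMIs, nearer the median of the LTS cells without coreceptor UMIs, these shares were 8.39% and 30.1%. Thinned to the depths of the shallower Cd4 cells, the LTS cells of 4000 or more UMIs gave 25 missed Cd4 cells, and those under 8000 UMIs gave 18.2. The thinned values again take deeper cells to hold the same share of Cd4 UMIs as shallower ones. That share, in LTS cells with a Cd4 UMI only, was 496 CPM from 2000 to under 4000 UMIs. It was 410 CPM from there to under 8000 UMIs and 229 CPM in the 9 deeper cells.

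Added together, the missed cells of the 2 lineages were estimated at 28.8 of the 97 LTS cells (29.7%) by the joint and the marker estimates. The numbers of cells with 1 and 2 UMIs gave 48.6 (50.1%). Thinning gave 46.4 (47.8%) from all deeper cells and 27.6 (28.5%) from those under 8000 UMIs. Summing the ends of the intervals of the joint and marker estimates gives 11.2 and 66.7 cells. The first 2 of these sums for the control library are 24.5 (76.4%) and 26 (81.2%) of the 32 cells, with an upper end above the number of cells. By thinning they are 26.3 (82.2%) and 15.4 (48.2%), the latter resting on 3 Cd8 cells and 1 Cd4 cell. Thinning counts only misses at depths under 4000 UMIs, while its percentages are of all 97 and 32 cells. Of the LTS cells 15 lay under 2000 UMIs and 59 from there to under 4000, and of the control cells 12 and 16. Cells that vary in coreceptor content make the joint estimate an underestimate. The estimate from cells with 1 and 2 UMIs is a lower bound where cells vary. The cells beyond these sums are thus no count of cells that lack coreceptor transcripts.

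The edges of the rule show how it cuts. Inside it, 8 control and 14 LTS cells had exactly 2 CD3 UMIs, with a median depth of 2489.5 and 3001 UMIs. Outside it, 31 control and 80 LTS barcodes without coreceptor UMIs had exactly 1 CD3 UMI, with a median of 12904 and 40716 UMIs, and 63 of those 80 held 3 or more UMIs of the tumour genes. On the coreceptor side, 12 control and 62 LTS CD3 cells had exactly 1 Cd4 or Cd8 UMI, at median depths of 2319 and 3195 UMIs. Of the cells inside, 10 control and 37 LTS cells had 1 or 2 C1q UMIs, and 1 and 3 barcodes with 3 to 10 C1q UMIs were outside. Lowering the depth limit to 750 UMIs would have added 1 control and 2 LTS barcodes.

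A subset of 13 cells carried several genes of interleukin 17 producing and gamma-delta T cells. The T cell receptor constant genes, which would tell gamma-delta from alpha-beta cells directly, were not analysed here, so 11 genes known from these cells were used instead, by a rule chosen after the data were seen: Il23r, Il17a, Il17f, Il17re, Ccr6, Il1r1, Sox13, Blk, Cd163l1, 5830411N06Rik and Il22. UMIs of 2 or more of them were found in 5 of 32 control cells (15.6%, 5.28 to 32.8) and in 8 of 97 LTS cells (8.25%, 3.63 to 15.6). None of the 18 control and 264 LTS Cd8 cells and none of the 12 control and 87 LTS Cd4 cells reached 2. In cells with 10 or more C1q UMIs, which should lack these genes, 2 control (0.148%) and 8 LTS cells (0.789%) reached 2 genes, at median depths of 4846 and 5556.5 UMIs.

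Cd163l1, the scavenger receptor SCART1 (mm10 chromosome 7, 140218267 to 140231145, plus strand), had a UMI in 7 control and 6 LTS cells without coreceptor UMIs. Of the LTS Cd8 cells 1 of 264 had one, and of the LTS Cd4 cells 0 of 87, which allows a share of up to 3.45%. Blk, a Src family kinase (chromosome 14, 63372836 to 63417037, minus strand), had a UMI in 5 control and 8 LTS cells and in no Cd8 or Cd4 cell of either library. Sox13 (chromosome 1, 133382303 to 133424377, minus strand), a transcription factor of the gamma-delta lineage, was seen in 2 control and 1 LTS cell. Any of these 3 genes was found in 7 of 32 control and 10 of 97 LTS cells. The near-empty barcodes, which carry free RNA of the suspension, held 2 UMIs of Cd163l1 over 49979 control barcodes and 0 over 40180 LTS barcodes.

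The effector genes of this type were rarer. Il17a, the cytokine itself, had a UMI in 4 control and 3 LTS cells, and 1 LTS cell held 29 of the 31 LTS UMIs. Il23r, a receptor for the cytokine that maintains such cells, had a UMI in 2 control and 2 LTS cells, and Il17re, a receptor chain of the interleukin 17 family, in 2 and 4. Il22 was limited to 2 UMIs in 1 LTS cell that also held Il17a, Il23r, Blk and Cd163l1. Cd163l1 and Blk occurred together in all 5 control cells of the subset and in 4 of its 8 LTS cells.

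The 13 cells shared further genes. Maf, a transcription factor of interleukin 17 producing and of CD4 effector T cells, had a UMI in 4 of the 5 control and 7 of the 8 LTS cells. Tmem176a or Tmem176b, ion channel genes, had one in 4 of 5 and 8 of 8 cells. Cxcr6, a chemokine receptor of tissue T cells, had one in 5 of 5 and 8 of 8 cells, the interleukin 7 receptor Il7r in 4 of 5 and 5 of 8, and Ikzf2, which encodes the transcription factor Helios, in 2 of 5 and 8 of 8. Ramp1, part of the receptor for the neuropeptide CGRP and chosen after its values were seen, had one in 3 of 5 and 7 of 8. Other LTS T cells carried several of these genes. Of those with 3 or more Ccl5 UMIs and under 8000 UMIs, 87.4% of Cd8 and 83.3% of Cd4 cells had Cxcr6. Over all depths Maf had a UMI in 50 of 87 Cd4 and 22 of 264 Cd8 cells. Tmem176a or Tmem176b had one in 15 of 87 and 15 of 264, and Ikzf2 in 11 of 87 and 10 of 264. Ccl5, a chemokine of cytotoxic cells, was at 0 in all 13, as were Klrd1 and Foxp3. They held 1700 to 3860 UMIs in the control and 2571 to 4982 in the LTS library, so none was among the deep cells.

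**Figure D3:**
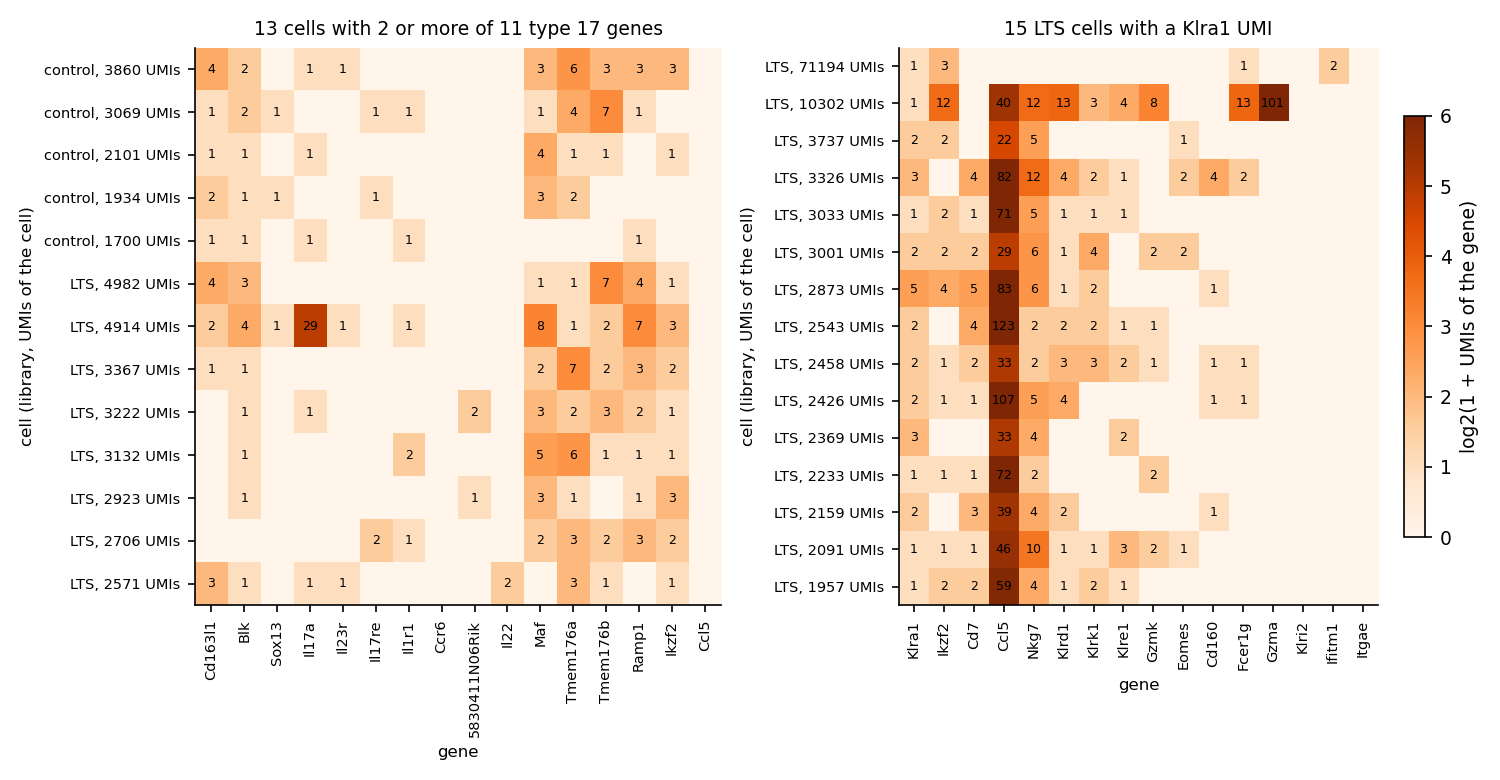
UMIs of single genes (columns, numbers in the tiles, colour log2 of 1 plus the UMIs) in single cells (rows, labelled by library and total UMIs): left, the 13 cells with 2 or more of 11 type 17 and gamma-delta genes; right, the 15 LTS cells with a Klra1 UMI. The cells on the left hold no Ccl5 UMI, and 14 of the 15 cells on the right hold 22 to 123.

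The innate-like list did not set the cells apart. Zbtb16, the transcription factor of natural killer T cells, was seen in 0 of 32 control cells (up to 9.38%) and 3 of 97 LTS cells, and in no Cd8 or Cd4 cell. The natural killer receptors Ncr1 and Klrb1c had a UMI in 2 and 1 control cells and in 3 and 2 LTS cells. Any of the 12 listed innate-like genes was found in 20 of 32 control (62.5%) and 72 of 97 LTS cells (74.2%), against 88.9% and 95.1% of Cd8 cells, 83.3% and 86.2% of Cd4 cells and 99.2% and 99.6% of cells with 10 or more C1q UMIs. That list includes Tyrobp and Fcer1g, which myeloid cells express, and Klrk1 and Klrd1, which CD8 T cells express, so a UMI of any of its genes is no mark of an innate-like T cell here.

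Among genes with 100 or more UMIs scaled to 1e6 (CPM) and a UMI in 10% of the cells, Ikzf2 had the largest ratio of the LTS cells without coreceptor UMIs over Cd8 cells at all depths. Ikzf2 (chromosome 1, 69531214 to 69687245, minus strand) is known from regulatory T cells and from several kinds of unconventional T cells. It had a UMI in 39 of 97 LTS cells (40.2%, 30.4 to 50.7), 10 of 264 Cd8 cells (3.79%) and 11 of 87 Cd4 cells (12.6%). Of the control cells it had one in 19 of 32 cells (59.4%), 3 of 18 Cd8 cells and 3 of 12 Cd4 cells. Thinned to 1000 UMIs per cell, the LTS shares were 20.1%, 1.07% and 7.43%. LTS tumour gene-rich cells also had Ikzf2 UMIs, in 30.2% of cells at their full depth and 1.45% when thinned. In summed counts, Ikzf2 had 96 UMIs in the LTS cells without coreceptor UMIs and 16 in Cd8 cells, a CPM ratio of 13.0 (7.63 to 23.7), and 59 against 3 UMIs in the control library (17.6, 5.73 to 87.6).

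Few of these Ikzf2 cells had a Foxp3 UMI. Foxp3 had a UMI in 4 control and 3 LTS cells, all of which also had Ikzf2. Of the Cd4 cells 2 of 12 control and 7 of 87 LTS cells had one. A cell without a Foxp3 UMI may still express it, and the share of regulatory cells among the Ikzf2 cells was not estimated. Tnfrsf4, a costimulatory receptor of regulatory and helper T cells, had one in 7 control and 17 LTS cells, against 8 of 12 and 29 of 87 Cd4 cells and 1 of 18 and 4 of 264 Cd8 cells. Cd40lg was seen in 0 control and 4 LTS cells, against 17 of 87 LTS Cd4 cells. Maf had a UMI in 16 of 32 control and 41 of 97 LTS cells (42.3%), between Cd8 cells (8.33% in the LTS library) and Cd4 cells (57.5%).

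Cytotoxic genes divided the LTS cells. Ccl5 (chromosome 11, 83525778 to 83530518, minus strand) was at 0 UMIs in 44 of 97 LTS cells, at 1 or 2 in 10 and at 3 or more in 43, with a highest value of 151 and a median of 29 in the cells that had it. Among LTS Cd8 cells 231 of 264 had 3 or more, and among Cd4 cells 12 of 87. Of the control cells, 5 of 32 without coreceptor UMIs had 3 or more, against 11 of 18 Cd8 cells and 0 of 12 Cd4 cells. Nkg7, a granule protein of cytotoxic cells, had a UMI in 50 of 97 LTS cells (51.5%), 257 of 264 Cd8 cells (97.3%) and 44 of 87 Cd4 cells. Gzma, the gene of granzyme A, had one in 6 of 97 LTS cells (6.19%) and 108 of 264 Cd8 cells (40.9%), and 1 cell held 101 of the 169 LTS UMIs.

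**Figure D4:**
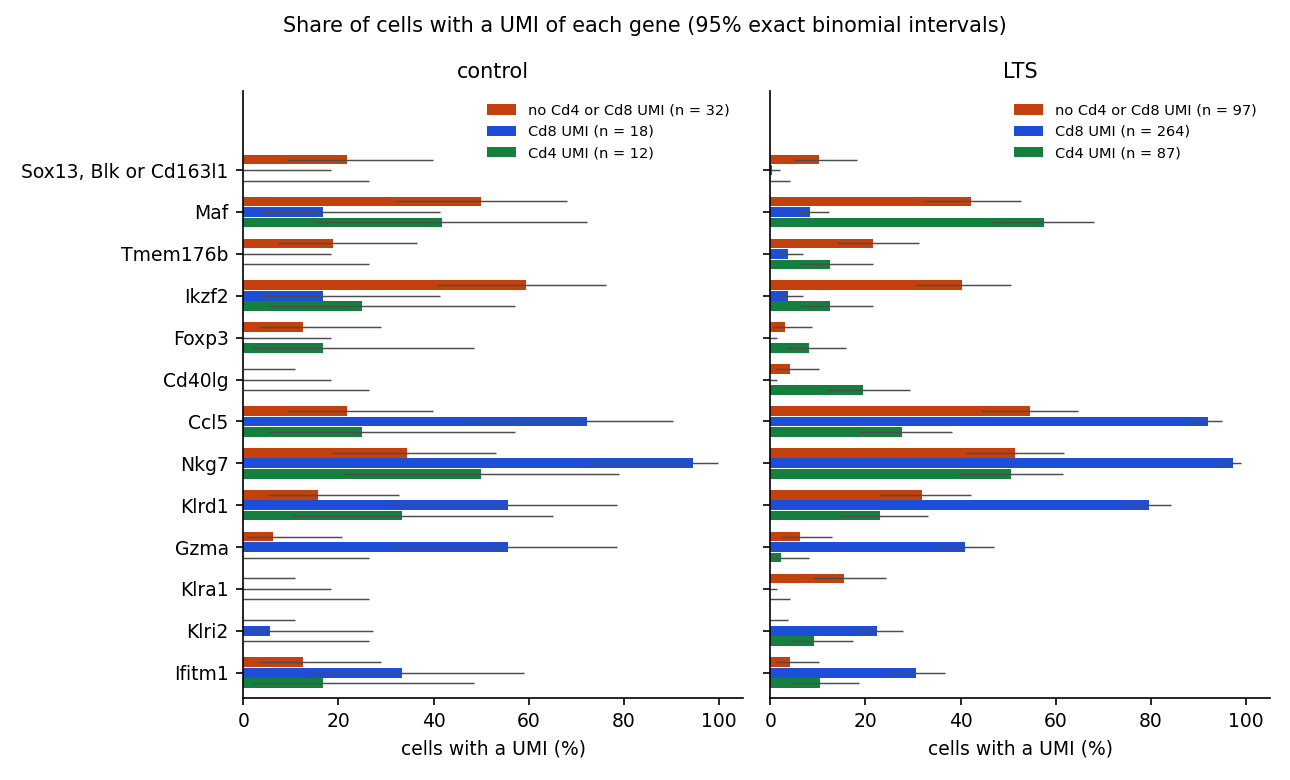
Share of cells with a UMI of each gene (x axis, percent) in cells without Cd4 or Cd8 UMIs, Cd8 cells and Cd4 cells of the control and LTS libraries, with 95% exact binomial intervals as lines and unthinned counts. In the LTS library Ikzf2 was seen in 40.2% of cells without coreceptor UMIs and 3.79% of Cd8 cells, Gzma in 6.19% and 40.9%, and Klra1 in 15.5% and in no Cd8 cell.

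Among cells with 3 or more Ccl5 UMIs, the LTS cells without coreceptor UMIs had more Ikzf2 and less Gzma, Itgae, Ifitm1 and Klri2 than Cd8 cells. This grouping, and the limit of 8000 UMIs used with it, were chosen after the values were seen. It compares 41 cells without coreceptor UMIs, at a median of 2458 UMIs, with 215 Cd8 cells at a median of 3333 UMIs. Ikzf2 had a UMI in 17 of 41 (41.5%) and 6 of 215 (2.79%), or 25.4% and 1.08% when thinned to 1000 UMIs. Gzma had one in 4 (9.76%) and 92 (42.8%), Itgae, an integrin chain of resident CD8 T cells, in 1 and 90 (41.9%), Ifitm1, an interferon-induced membrane protein, in 1 (2.44%) and 64 (29.8%), and Klri2, a killer cell lectin-like receptor, in 0 (up to 7.32%) and 49 (22.8%). Plac8 was seen in 5 and 111 cells (51.6%) and the fibrinogen-like Fgl2 in 6 (14.6%) and 109 (50.7%).

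Further genes of the same comparison lay on either side. Klrd1, a natural killer receptor chain, had a UMI in 56.1% of the 41 cells and 80.9% of the 215 Cd8 cells (32.0% and 48.2% thinned), Lck in 53.7% and 78.1% and Cxcr6 in 65.9% and 87.4%. Tcf7, a transcription factor of memory T cells, had one in 22.0% and 3.72% (9.96% and 1.33% thinned). Nkg7 had a UMI in 38 of the 41 cells (92.7%) and 213 of the 215 Cd8 cells (99.1%), Gzmk in 51.2% and 55.3%, and the receptor Klre1 in 41.5% and 40.5%. Of the genes of the T cell programme, Cd28 was seen in 26.8% and 32.6%, Cd5 in 26.8% and 19.5% and Thy1 in 65.9% and 84.2%. The median log2 ratio of the summed counts over the 17 tested cytotoxic genes was -0.35, with 0.06 over all genes. Of the 17, 3 were lower and 1 was higher by 2-fold or more, as were 9.52% and 9.73% of all genes tested. The shares are not corrected for the lower depth of the 41 cells unless thinned values are given.

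Klra1 was found in 15 LTS cells without coreceptor UMIs and in no Cd8 or Cd4 cell. Klra1 (chromosome 6, 130363917 to 130386874, minus strand) encodes an inhibitory receptor of the Ly49 family, which natural killer cells and some T cells use to recognise MHC class I. Its family members are near-identical, so the UMIs may belong to another member, and the gene was chosen after its values were seen. It had a UMI in 15 of 97 LTS cells (15.5%, 8.92 to 24.2), in 0 of 264 Cd8 cells (up to 1.14%) and in 0 of 87 Cd4 cells (up to 3.45%). No control CD3 cell had one. LTS tumour gene-rich cells had one in 83 of 2138 (3.88%), or in 0.0832% when thinned to 1000 UMIs, against 8.14% of the LTS cells without coreceptor UMIs. Near-empty LTS barcodes held 24 Klra1 UMIs over 40180 barcodes.

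The 15 cells held 1 to 5 Klra1 UMIs each. Ccl5 was at 22 to 123 UMIs in 14 of them, with a median of 52.5. The remaining cell had 71194 UMIs, 95 UMIs of the tumour genes and no Ccl5. Ikzf2 had a UMI in 11 of the 15, and Cd7, a surface protein of T and natural killer cells (chromosome 11, 121036747 to 121039418, minus strand), in 11. Nkg7 was found in 14, Klrd1 in 11, Klrk1 in 9 and Klre1 in 8, whereas Gzma was found in 1 and Klri2 and Itgae in none. The cell with Gzma had 10302 UMIs in all, with 101 of Gzma, 13 of Fcer1g and 12 of Ikzf2. Over all 97 LTS cells, Cd7 had a UMI in 22 (22.7%), against 44 of 264 Cd8 and 2 of 87 Cd4 cells.

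Cells outside both of these groups were counted for genes picked after their values were seen. In the LTS library 46 cells had fewer than 2 of the 11 type 17 genes and fewer than 3 Ccl5 UMIs. Among these Il7r had a UMI in 28, the costimulator Icos in 25, Maf in 25, Cd28 in 21, Tcf7 in 18, Tnfrsf4 in 14 and Ikzf2 in 12. Cd8 cells also had UMIs of these genes: Il7r in 49.6%, Cd28 in 34.8% and Icos in 22.0% of the 264. LTS tumour gene-rich cells had Tcf7 in 61.2% of cells at their full depth and 2.69% when thinned to 1000 UMIs. Of the control cells 22 remained, with Ikzf2 in 15, Maf in 12, Icos in 11, Tnfrsf18 in 9 and Tnfrsf4 in 7.

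Sorted in a fixed order, each cell fell into 1 of 5 groups. Among control cells, 5 had 2 or more of the 11 type 17 genes, 3 further cells had 8000 or more UMIs, 4 had a Foxp3 or Cd40lg UMI, 3 had 3 or more Ccl5 UMIs and 17 (53.1%, 34.7 to 70.9) had none of these. Among LTS cells the numbers were 8, 10, 7, 38 and 34, so that the Ccl5 group was 39.2% (29.4 to 49.6) and the unsorted group 35.1% (25.6 to 45.4). The unsorted cells had median depths of 2085 and 2789 UMIs.

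Each cell was also compared with the summed profiles of the Cd8 and the Cd4 cells of its library over 138 listed genes. Of the 97 LTS cells 38 (39.2%, 29.4 to 49.6) were nearer to the Cd8 profile, and of the 32 control cells 3 (9.38%). All 13 type 17 cells were nearer to the Cd4 profile. With each tested cell left out of its own profile, 215 of 264 LTS Cd8 cells were nearer to Cd8 and 82 of 87 Cd4 cells nearer to Cd4. Only 10 of 18 control Cd8 cells were placed with their own set, so the control profiles sort poorly. The comparison offers just these 2 profiles, and a cell of any other kind must fall to 1 of them.

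The deepest cells carried tumour genes. The 3 control cells of 8000 or more UMIs held 23, 36 and 53 UMIs of the 8 tumour genes (Postn, Mgp, Col1a1, Col3a1, Col5a2, Sparc, Scx and Pbld2) by the lowest, middle and highest value. The 10 such LTS cells held 0 to 284 with a median of 68. Below 8000 UMIs the highest values were 8 in the control and 3 in the LTS library. The 3 and 10 deep cells made up 41.6% and 58.0% of all UMIs of the cells without coreceptor UMIs, so summed profiles at all depths rest largely on them. Of the 8 tumour genes Col5a2 was at 0 in both libraries. No doublet caller was run, and the part of barcodes that hold 2 cells in these values was not tested.

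Below 8000 UMIs the tumour genes made up 986 CPM of the control and 315 CPM of the LTS cells. Near-empty barcodes, at a depth of 27.6% and 14.3% of the median of all the control and LTS cells without coreceptor UMIs, held 1868 and 1953 CPM of them. Markers of other cell types were present at all depths. Of 8 monocyte genes S100a8, S100a9 and Chil3 were at 0 in both libraries, and the list had a UMI in 25 of 32 control and 75 of 97 LTS cells. It made up 868 and 884 CPM, against 378 and 786 CPM in near-empty barcodes and 1289 and 1439 CPM in Cd8 cells. Cd8 cells thus held more of it, so a UMI of the list is no mark of a monocyte here. The 11 microglia genes, none of them at 0, had a UMI in 28 and 81 cells and made up 954 and 746 CPM, against 2428 and 2698 CPM in near-empty barcodes. Endothelial genes had one in 8 and 19 cells, at 86.0 and 62.2 CPM against 65.5 and 98.9 CPM. B cell genes were found in 2 cells of each library, with 2 UMIs at most in the control and 24 in 1 LTS cell. MHC class II genes had a UMI in 12 control and 24 LTS cells, at 885 and 239 CPM against 167 and 276 CPM in near-empty barcodes, and reached 88 UMIs in 1 control and 117 in 1 LTS cell. The part of these other cell types in the results below was not tested. The choroid plexus genes Ttr, Folr1 and Enpp2 were at 0 in the control cells without coreceptor UMIs. In the LTS cells without them they had UMIs in 29 cells, 7 at most, with Folr1 at 0, and made up 73.6 CPM against 449.5 CPM in near-empty LTS barcodes. Natural killer receptor genes of a list of 14 had a UMI in 8 of 32 control and 50 of 97 LTS cells, against 16 of 18 and 245 of 264 Cd8 cells, with Klra8 and Klri2 at 0 in both libraries. In near-empty barcodes 2 or more CD3 UMIs were seen in 0 control and 5 LTS barcodes. At these rates free RNA alone would give up to 0.314 control barcodes, by the limit of 3 counts. The LTS value was 0.399 barcodes, from the 5 seen and without an upper limit.

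In summed counts of the LTS library the cells without coreceptor UMIs were set against Cd8 cells over 7068 genes with 20 CPM or more in either sum, with 5 CPM added to both. A gene that passed this minimum only through the set where it is high had to differ, so the counts are descriptions. Of all tested genes 4.07% were 2-fold or more higher and 2.14% were 2-fold or more lower, or 288 and 151 genes, which became 194 and 237 when scaled by the median of ratios. Of 15 listed type 17 and gamma-delta genes 6 were tested and all 6 were higher by 2-fold or more (Il17a, Tmem176b, Tmem176a, Cd163l1, Maf and Blk), with a median log2 ratio of 2.50 against 0.14 for all genes. Of the 18 CD8 lineage and cytotoxic genes 17 were tested and 14 were lower by 2-fold or more, with a median of -1.71. Of 14 natural killer receptor genes 6 were tested and 5 were lower, with a median of -1.55. The 14 T cell signalling genes had a median of -0.47, with 2 lower, and the 8 tested innate-like genes a median of -0.00. Below 8000 UMIs, where 5.71% of all genes were higher and 4.15% lower, the type 17 list had a median of 3.50 with 6 of 6 higher and the cytotoxic list -1.21 with 12 of 17 lower. The natural killer receptor list had -1.11 there with 3 of 6 lower, the signalling list 0.08 with 0 of 14 lower, and 9 innate-like genes 0.52 with 2 higher and 2 lower. MHC class II genes went from -0.64, with 2 of 5 lower, to 2.44, with 4 of 5 higher. These sums rest largely on single cells. Below 8000 UMIs 1 cell without coreceptor UMIs held 117 MHC class II UMIs, and at all depths 1 Cd8 cell held 419.

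Single cytotoxic genes followed the list. Gzma had 169 UMIs in the LTS cells without coreceptor UMIs and 4070 in Cd8 cells, a ratio of 11.1 in favour of Cd8 cells (9.5 to 13.0). Of the 169 UMIs 101 were in 1 cell, and the interval, which covers counting error only, does not take this into account. Nkg7 had 224 and 1694 UMIs (3.48, 3.03 to 4.02), Gzmb, granzyme B, 58 and 467 (3.71, 2.82 to 4.96), and Prf1, the pore-forming perforin, 3 and 56 (8.59, 2.79 to 42.9). Ccl5 had 1858 and 10059 UMIs (2.49, 2.37 to 2.62). Eomes, a transcription factor of cytotoxic and memory cells, had 12 and 39 UMIs, and its interval of 0.767 to 3.14 includes 1. Outside the lists, Ifitm1 had 10 and 915 UMIs, a log2 ratio of -5.02, and Id3, an inhibitor of DNA-binding factors, had a log2 ratio of 1.73. Maf had 125 and 43 UMIs, a ratio of 6.32 (4.43 to 9.15) in favour of the cells without coreceptor UMIs. This ratio is of all depths, and 9 of the 10 deep cells without coreceptor UMIs held Maf. Their part in it was not tested. Below 8000 UMIs Slamf6, a receptor of the SLAM family, Izumo1r, the folate receptor 4 of regulatory cells, and Tcf7 were among the 10 largest ratios, at 3.58, 3.31 and 2.82 on the log2 scale.

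The same 97 cells were set against the LTS Cd4 cells over 7200 genes, where 16.1% were higher and 5% lower by 2-fold or more, or 1156 and 360 genes. These became 908 and 532 with median-of-ratios scaling and 588 and 331 with the mean of the per-cell CPM. Of the 6 tested type 17 genes 3 were higher (Il17a, Cd163l1 and Blk), with a median of 1.66 against 0.18 for all genes. With 1 CD3 UMI allowed, which adds 80 barcodes at a median of 40716 UMIs, that list median was -1.83. Regulatory T cell genes were lower in 6 of 8, with a median of -1.32, and T cell signalling genes in 10 of 14, with a median of -1.22. Of a list of 11 tumour genes, which is not the set of 8 named above, 10 were tested and 7 were higher, with a median of 2.24. Below 8000 UMIs, where 7.76% of genes were higher and 5.34% lower, these differences were smaller: the signalling list had a median of -0.24 with 0 of 14 genes lower, the regulatory list -0.36 with 1 of 8 lower and the tumour list 0.32 with 0 of 8 higher. The type 17 list had a median of 2.85 there, with 5 of 6 genes higher, but Il17a, Cd163l1 and Blk had no UMI in LTS Cd4 cells and passed the minimum only through the cells where they were found. Ccl5 had 1777 UMIs below 8000 UMIs against 279 in Cd4 cells, a ratio of 7.62 (6.72 to 8.68), and Cd7 had 46 against 1.

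**Figure D5:**
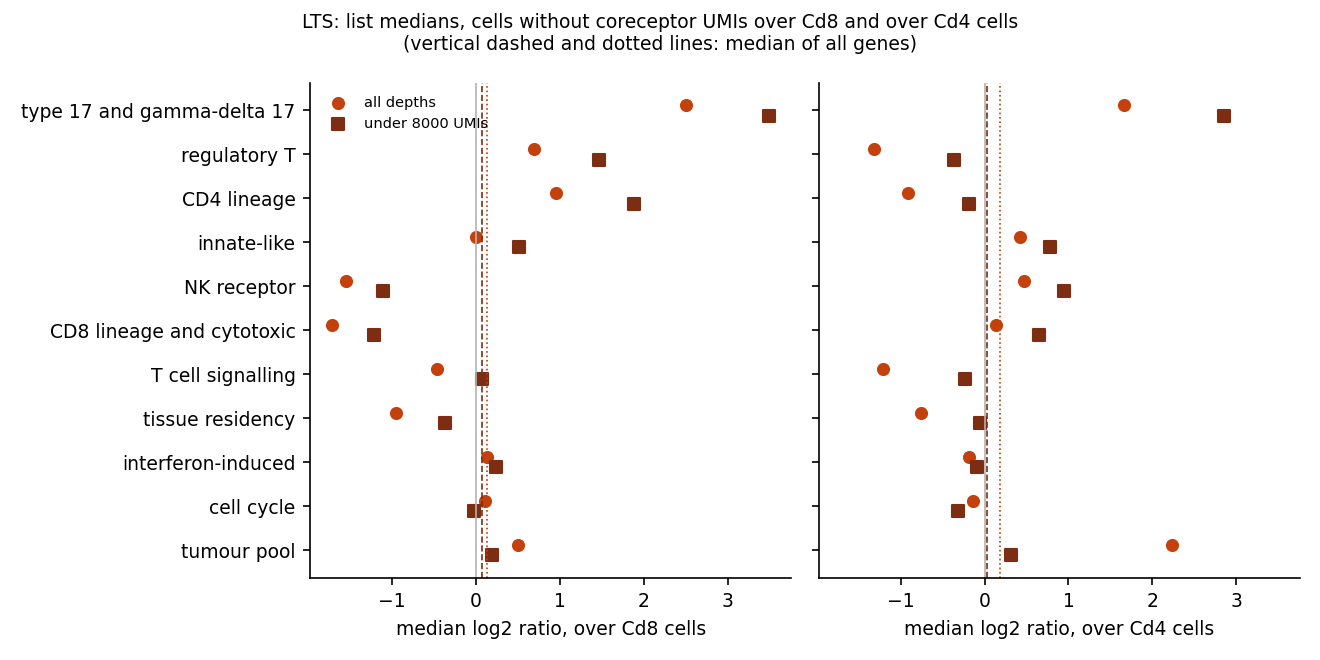
Median log2 ratio of the tested genes of 11 lists (x axis) in LTS cells without coreceptor UMIs over Cd8 cells (left) and over Cd4 cells (right), at all depths (circles) and below 8000 UMIs (squares), with vertical dotted and dashed lines at the median of all genes. The type 17 list lies at 2.50 and 3.50 over Cd8 cells and at 1.66 and 2.85 over Cd4 cells, and the cytotoxic list at -1.71 and -1.21 over Cd8 cells; lists hold 5 to 17 tested genes.

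In the control library the same comparisons rest on 32 cells against 18 and 12. Over Cd8 cells 17.8% of 7193 genes were higher and 14.5% lower by 2-fold or more. The type 17 list was higher in 5 of 6 genes, with a median of 4.12, which was the same over Cd4 cells. The median half-width of its log2 intervals was 4.20 over Cd8 and 4.66 over Cd4 cells. Genes without a UMI in the comparison cells, such as Blk, passed the minimum only through the cells where they were found. Such genes had to be higher. The regulatory list was higher in 6 of 8, with 3.13, and the cytotoxic list was lower in 10 of 13, with -1.56. Ctla4, an inhibitory receptor of regulatory and activated T cells, had 14 UMIs in the cells without coreceptor UMIs and 0 in Cd8 cells. Gzma had 3 and 161 UMIs. Over Cd4 cells, where 23.4% of 7027 genes were higher and 14.2% lower, the type 17 list had 5 of 6 genes higher and the regulatory list 2 of 8 lower, with a median of -0.20. Without the deep cells of 8000 or more UMIs the regulatory list had a median of 0.65, with 3 of 9 higher and 0 lower. There 28.8% of all genes were higher and 22.8% lower. The median half-width of the log2 intervals of this list was 1.23 with and 1.94 without the deep cells. Its direction over Cd4 cells was thus not settled.

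The LTS cells without coreceptor UMIs were then set against the control ones. Of 7380 genes 10.8% were higher and 8.05% lower in the LTS library by 2-fold or more, with a median log2 ratio of -0.06. The control side is the sum of 32 shallow cells, so these shares include genes that counting error alone takes past 2-fold. The 795 higher and 594 lower genes became 1010 and 1282 with the mean of the per-cell CPM. Ccl5 had 1858 UMIs in 53 of 97 LTS cells and 50 UMIs in 7 of 32 control cells, a ratio of 7.07 (5.34 to 9.57). Its log2 ratio of 2.81 was 0.39 with 1 CD3 UMI allowed and 3.44 below 8000 UMIs. Of 13 tested cytotoxic genes 6 were higher in the LTS cells, with a median of 0.72. They included Gzma, with 169 against 3 UMIs, 101 of the 169 in 1 cell, and Gzmk, granzyme K, with 37 against 3, whose interval of 0.743 to 11.9 includes 1. Nkg7 had a ratio of 1.15 (0.811 to 1.68). Ctla2a, a protease inhibitor gene of T cells, had 186 against 7 UMIs (5.06, 2.41 to 12.8). The share of cells with 3 or more Ccl5 UMIs was 43 of 97 in the LTS and 5 of 32 in the control library.

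Regulatory and interferon-induced genes were lower in the LTS cells. Of 8 tested regulatory genes 6 were lower by 2-fold or more, with a median of -1.49, and the list had no gene higher. Ikzf2 had 157 CPM in the LTS and 507 CPM in the control cells, a ratio of 3.23 in favour of the control (2.29 to 4.51), with UMIs in 39 of 97 and 19 of 32 cells. Tnfrsf4 had a ratio of 2.83 (1.58 to 4.93) and Ctla4 of 3.20 (1.52 to 6.48). Of 18 tested interferon-induced genes 11 were lower, with a median of -1.25, and below 8000 UMIs 12 of 17, where 13.4% of all genes were higher and 20.3% lower. Ifit3 had 23 UMIs in 6 LTS cells and 22 in 9 control cells, a ratio of 5.02 in favour of the control (2.67 to 9.43), and the antiviral Mx1 had 5 and 11 UMIs. The cells at 3 or more tumour gene UMIs were 14 of 32 in the control and 15 of 97 in the LTS library, and their part in these differences was not tested. Summed MHC class II genes were also lower in the LTS cells, in 4 of 5 with a median of -1.63, and below 8000 UMIs in 5 of 6 with -1.26. These sums rest largely on 1 cell per library, with 88 MHC class II UMIs in the control and 117 in the LTS cell. Of the list of 11 tumour genes 10 were tested below 8000 UMIs and 6 were lower, with a median of -1.03. The part of either list in the regulatory and interferon differences was not tested. Library, day and treatment cannot be told apart in any of them.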

How the data were processed

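Single-cell 3' RNA libraries (chemistry version 3) were made, per the labels' protocols, from cells of the 37% to 70% Percoll interphase after enzymatic digestion and a 40 µm filter. The deposited values were raw UMI counts per gene and barcode, made by the authors with Cell Ranger 4 per the file headers, against mm10 per the submitters' processing notes. No source used here names the annotation release. The matrices list 27998 genes and unfiltered barcodes, with 165796852 (control) and 149413534 (LTS) UMIs in all. Of 9127 and 5440 barcodes with 1000 or more UMIs, 817 and 605 were left out for mitochondrial UMIs and 0 and 1 for under 300 genes. Gene positions came from GENCODE M21 on mm10, matched by gene identifier.

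Counts were summed per set and library, scaled to CPM, and set against each other as log2 ratios with a pseudocount of 5 CPM, for genes with 20 CPM in either sum. Since each group has 1 library, no test was run. Shares carry Clopper-Pearson and count ratios exact conditional 95% intervals, and a count of 0 is given with the limit of 3 counts. The interval of the joint Cd8 estimate is a log-normal approximation. Thinned shares are expected values after drawing 1000 UMIs per cell. Missed Cd8 cells were estimated as the product of the cells with Cd8a only and Cd8b1 only over the cells with both, and missed cells from n1 cells with 1 and n2 cells with 2 UMIs as the squared-count estimate of Chao. The thinning estimate took the chance of losing every coreceptor UMI at each shallower cell's depth from the deeper cells. Profiles were compared by multinomial likelihood. No doublet caller was run. The scripts were tested on simulated data with known answers.

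The cells, the 25 gene lists and the rules were chosen with earlier results of these data known. Genes named were list members of 20 CPM or more (up to 6 a list) and, per comparison, the 10 largest and 10 smallest ratios among genes of 100 CPM and a UMI in 10% of cells. Mitochondrial, ribosomal protein, haemoglobin, sex-linked, receptor segment and unnamed models were left out. Other genes, among them Klra1, Cd7 and Ramp1, the 11-gene rule, the limit of 3 Ccl5 UMIs and that of 8000 UMIs were chosen after values were seen. The T cell receptor constant genes were not analysed here, so the planned split by receptor was replaced by the 11-gene rule. Some planned genes are not reported here and were left out of the lists and that rule. Alternatives changed the CD3, C1q, depth and mitochondrial limits, thinning, the scaling, the pseudocount and the minimum, left out barcodes with tumour or B cell genes, and estimated missed Cd8 cells in other ways. Software was Python 3.11.15, numpy 2.4.6, scipy 1.17.1, pandas 2.3.3 and matplotlib 3.10.9.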

Additional observations from a re-analysis of the deposited data

How the results depend on the processing

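No paired analysis was possible because each group has 1 library, and for the same reason no replicate could be left out. Of 206 values and counts for whole comparisons 141 stayed within their counting interval or within 1.5 times and 65 moved. Of 1316 list medians 175 changed sign, 23 of them below 8000 UMIs, and 5 of the 175 had been 1 or more from 0 on the log2 scale. Of 1316 ratios of named genes 1164 stayed, 136 moved and 16 changed sign. Depth limits these values, with a median of 2278.5 UMIs in the control cells. Where an alternative adds or removes cells, tested genes or UMIs, its construction moves the counts, and otherwise the cause was not tested. Scaling by the median of ratios moved the median log2 ratio of all genes from 0.06 to 0.20 for control cells over Cd8 cells, from 0.14 to -0.00 and from 0.18 to 0.00 for LTS cells over Cd8 and Cd4 cells, and from -0.06 to 0.08 for LTS over control.

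The share of CD3 cells without coreceptor UMIs went from 51.6% to 64.9% (control) and from 21.5% to 32.5% (LTS) with 1 CD3 UMI allowed. It went to 72.8% and 45.9% with cells thinned to 1000 UMIs, and to 31.3% in the LTS library at 2000 UMIs. The LTS share with an innate-like or type 17 gene went from 90.7% to 69.4% and 82.5% at these depths. The LTS share with 2 or more of the 11 genes went from 8.25% to 3.02% at 1000 UMIs and was 3.09% for 3 or more genes. The 3.42 missed Cd8 cells became 6.25 from the cells with 1 and 2 UMIs, and 21.4 and 9.38 by thinning the deeper cells of 4000 or more and of 4000 to under 8000 UMIs, and the 0.462 control cells became 6.33 by thinning those of 4000 or more.

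The counts of genes past 2-fold moved most. For LTS over control, the 795 higher genes became 88 with 1 and 1282 with 3 CD3 UMIs, 1302 without barcodes of 3 or more tumour or B cell gene UMIs, 366 with a pseudocount of 20 CPM and 1729 without a CPM minimum. The 594 lower genes became 116, 903, 2056, 216 and 1189 in that order, and 1436 without any C1q UMI, 1416 below 8000 UMIs, 1282 with the mean of per-cell CPM and 915 with free RNA at the near-empty level taken off. For control cells over Cd8 cells, the 1278 higher genes became 2886 without tumour or B cell gene barcodes, 1978 with the per-cell mean, 731 with 20 CPM and 2552 without the minimum. The 1042 lower genes became 2319, 1583, 653 and 2033 in that order, and 1971 with 3 CD3 UMIs, 2248 without C1q and 1908 below 8000 UMIs. For control cells over Cd4 cells, the 1642 higher genes became 2871 without tumour or B cell gene barcodes and 3544 without the minimum. The 995 lower genes became 2381 and 1555, and 2258 without C1q, 1713 below 8000 UMIs, 1596 with the per-cell mean and 1597 with free RNA taken off.

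For LTS cells over Cd8 cells, the 288 higher genes became 71 with 20 CPM and 509 without the minimum. The 151 lower genes became 64 and 289, and 610 with 1 CD3 UMI, 345 without C1q, 284 without tumour or B cell gene barcodes, 269 below 8000 UMIs and 237 with median-of-ratios scaling. For LTS cells over Cd4 cells, the 1156 higher genes became 1811 with 1 CD3 UMI, 584 with 20 CPM and 1825 without the minimum. They also became 745 without C1q, 475 without tumour or B cell gene barcodes, 503 below 8000 UMIs and 588 with the per-cell mean. The 360 lower genes became 991, 159 and 557 with the first 3 of these.

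Signs of named genes, and of list medians 1 or more from 0, changed as follows on the log2 scale. In LTS over control, Rhoc went from 1.72 to -0.23 with 1 CD3 UMI, -0.54 without tumour or B cell gene barcodes and -0.095 below 8000 UMIs, Cenpf from 1.97 to -0.16 and -1.12 under the last 2 and Racgap1 from 1.62 to -0.30 under the last. Over LTS Cd8 cells, without C1q Col4a1 went from 1.24 to -0.024, Slc5a3 from 1.21 to -0.28 and Hist1h1b from -1.97 to 0.48. Without tumour or B cell gene barcodes and below 8000 UMIs Slc5a3 was -0.45 and -0.55 and Fscn1, 1.39 before, -0.39 and -0.48, and Apoe went from -2.28 to 0.087 below 8000 UMIs. Over LTS Cd4 cells Nr2f2 went from 3.27 to -0.0698 and -1.02 under the same 2. With 1 CD3 UMI the list medians of CD4 lineage genes in control cells over Cd8 cells went from 1.31 to -0.41, of cytotoxic genes over Cd4 cells from 1.27 to -1.27 (-0.030 at a minimum of 2000 UMIs) and of type 17 genes in LTS cells over Cd4 cells from 1.66 to -1.83. The MHC class II median of LTS over Cd4 cells went from 1.29 to -0.38 with 3 CD3 UMIs. Of the smaller medians, LTS over control cell cycle genes went from 0.40 to -0.87 below 8000 UMIs.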

Other observations

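Cell cycle genes of the control library had a median log2 ratio of -0.99 in the cells without coreceptor UMIs over Cd8 cells, with 8 of 16 genes lower by 2-fold or more, as were 14.5% of all genes. For LTS cells the same list had a median of 0.11, with 0 of 16 lower, against 2.14% of all genes. Below 8000 UMIs the medians were -1.58 with 11 of 16 lower in the control library, where 23.9% of all genes were higher and 24.1% lower, and -0.02 with 2 higher and 1 lower in the LTS library. Slamf6 had a UMI in 17 of 97 LTS cells without coreceptor UMIs and 7 of 264 Cd8 cells, and the memory factor Tcf7 in 29 (29.9%, 10.6% thinned) and 17 of 264, and in 61.2% of LTS tumour gene-rich cells (2.69% thinned). The naive T cell marker Ccr7 had a UMI in 2 LTS cells. Pdcd1, the checkpoint receptor PD-1, had one in 11 of 32 control and 8 of 97 LTS cells, and Gata3, a transcription factor of helper and innate-like cells, in 3 and 22.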
